A study of Mus musculus with 6 samples.

Results

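The 9 transcripts described here encode parts of the podocyte slit diaphragm and of the membrane and cytoskeleton that hold it: Nphs1, Kirrel (also written Kirrel1), Fat1, Magi2, Tjp1, Cd2ap, Ptpro, Podxl and Synpo. They were taken by name from a table of 55401 mouse genes, through their Ensembl identifiers, and all 9 were found and passed the filter on low counts, which kept 19717 genes. Polyadenylated RNA of glomeruli, the filtering units of the kidney, was sequenced from mice labelled Control (3 libraries) and DKD (3 libraries), where the series title spells out DKD as diabetic kidney disease. The labels enter Control and DKD under genotype, and name no allele, strain, age, sex or way of inducing diabetes. They do not say that each library came from its own mouse, so each p-value reflects library-to-library spread, which may be technical.

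Podocytes are epithelial cells that wrap the glomerular capillaries with interlocking foot processes. Neighbouring foot processes are bridged by the slit diaphragm, a cell junction in which nephrin (Nphs1) and the nephrin-like protein Neph1 (Kirrel) reach across the gap. Scaffold proteins on the inner face tie them to actin, and inherited loss of several of these proteins causes protein to leak into the urine.

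In glomeruli labelled DKD, 8 of the 9 transcripts were measured below Control, as were 49.8% of all genes tested, and 1, Cd2ap, above it. None of the 9 passed edgeR's quasi-likelihood test at an adjusted p under 0.05, a threshold that 1.16% of all genes tested passed (228 of 19717). The median log2 fold change of the 9, DKD over Control, was −0.52, against 0 for all genes tested. The estimates ran from −0.86 for Ptpro to 0.16 for Cd2ap. At an unadjusted p under 0.05 there were 4 lower and 0 higher, where 10.9% of all genes were lower and 11.8% higher at that p. For 5 of the 9 every DKD library lay below every Control library, a pattern found in 15.2% of all genes tested. In bulk RNA, fewer podocytes and less RNA per podocyte cannot be told apart, and this holds for every value below.

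Levels are given in CPM, a count relative to its library's total after TMM scaling, and each ± beside a mean is an SD over 3 libraries. Library totals ran from 71154026 to 83576494 counts. Counts of the 9 transcripts ran from 145 (Magi2 in DKD replicate 1) to 23062 (Podxl in Control replicate 1). Counting error alone would give a coefficient of variation of 8.3% at the lowest of these and 0.658% at the highest. Control replicate 3 stood apart from its group, with a log2 CPM correlation across genes of 0.956 and 0.954 with Control replicates 1 and 2, which correlated at 0.98 with each other. It also had the largest share of counts in proximal tubule markers, 5.26%, against 3.1% to 3.43% in the other Control libraries and 1.49% to 2.75% in DKD. In every library, labelled as glomeruli, this share exceeded that of 28 podocyte markers outside the 9, which was 0.101% to 0.167%. Tubule transcripts were thus abundant in every library, and the part of tubule content in the values below was not tested.

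Among the proteins that span the slit, nephrin is the transmembrane protein whose extracellular domains meet between foot processes and whose tail recruits adaptor proteins when phosphorylated. Nphs1 (ENSMUSG00000006649, chromosome 7) was measured at 55.6, 50 and 41.3 CPM in Control replicates 1 to 3 and at 28, 24.8 and 41.2 CPM in DKD replicates 1 to 3. The groups did not overlap, but DKD replicate 3 lay just under Control replicate 3. The means were 49 ± 7.2 and 31.4 ± 8.67 CPM, with a log2 fold change of −0.64 ± 0.21 (SE) and an edgeR adjusted p of 0.137. DESeq2 gave Nphs1 an adjusted p of 0.047. A ribosomal protein pseudogene, Rps12-ps4, lies on the opposite strand of an annotated Nphs1 exon (2.76% of its exonic bases) and had 657 to 1317 counts per library, against 1793 to 4653 for Nphs1. Whether counting used the strand is not stated.

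Kirrel encodes Neph1, the immunoglobulin-superfamily partner of nephrin in the slit. Kirrel (ENSMUSG00000041734, chromosome 3) was measured at 28.4, 25.2 and 14.5 CPM in Control and at 12.5, 19.3 and 16.2 CPM in DKD. Control replicate 3 lay below DKD replicates 2 and 3, so the groups overlapped. This gave a log2 fold change of −0.5 ± 0.27 and an edgeR adjusted p of 0.318. Without Control replicate 3 it was −0.74 (adjusted p 0.0871) and without Control replicate 1 it was −0.31 (adjusted p 0.62).

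Fat1 encodes a very large atypical cadherin found at the slit and at other epithelial cell contacts. Fat1 (ENSMUSG00000070047, chromosome 8) was measured at 100.2, 118 and 63.4 CPM in Control and at 67.2, 89.1 and 62.5 CPM in DKD. Control replicate 3 again lay among the DKD libraries. Its log2 fold change was −0.36 ± 0.24 with an edgeR adjusted p of 0.421. It was −0.58 without Control replicate 3, −0.17 without Control replicate 2 and −0.15 with a trend on exonic length removed.

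The scaffold and adaptor proteins sit on the inner face of the slit. Magi2 is a PDZ-domain scaffold, and its transcript (ENSMUSG00000040003, chromosome 5) was the least abundant of the 9. It was measured at 12.5, 10.5 and 10.2 CPM in Control and at 2.17, 8.06 and 8.65 CPM in DKD. All 3 DKD libraries were lower, and DKD replicate 1 was far below the other two. Within DKD the highest library held 3.99 times the level of the lowest, against 1.23 times within Control. The log2 fold change was −0.81 ± 0.46 with an edgeR adjusted p of 0.345, and without DKD replicate 1 it was −0.4 (adjusted p 0.361).

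Tjp1 encodes ZO-1, a scaffold of tight junctions that also binds Neph1 and is made by most epithelial and endothelial cells. Tjp1 (ENSMUSG00000030516, chromosome 7) was measured at 70.4, 70.8 and 49 CPM in Control and at 37.3, 48.4 and 54 CPM in DKD. The groups overlapped through Control replicate 3 and DKD replicate 3. Tjp1 had a log2 fold change of −0.44 ± 0.19 with an edgeR adjusted p of 0.23, and −0.31 (0.491) without DKD replicate 1.

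Cd2ap encodes an adaptor that links nephrin to actin and to endocytosis, and it is also made outside podocytes. Cd2ap (ENSMUSG00000061665, chromosome 17) was measured at 99.7, 97.5 and 79.9 CPM in Control and at 102, 94.3 and 113 CPM in DKD. The groups overlapped, and the libraries of each lay close together, with coefficients of variation of 11.7% in Control and 8.87% in DKD. Cd2ap had a log2 fold change of 0.16 ± 0.13 with an edgeR adjusted p of 0.524. Its estimate stayed at or above 0.01 in all 18 alternative settings and reached 0.38 with the length trend removed.

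The remaining 3 proteins belong to the podocyte surface and cytoskeleton around the slit. Ptpro encodes a receptor-type tyrosine phosphatase of the apical podocyte membrane, also known as GLEPP1. Ptpro (ENSMUSG00000030223, chromosome 6) was measured at 29.2, 26.2 and 19 CPM in Control and at 12.1, 14.2 and 14.7 CPM in DKD. The groups did not overlap, and the 3 DKD libraries lay closer together than for 7 of the other 8 transcripts, with a coefficient of variation of 9.95%. The log2 fold change of −0.86 ± 0.18 left 55.2% of the Control level and had the smallest edgeR adjusted p of the 9, 0.0637. Ptpro passed 0.05 with DESeq2 (adjusted p 0.00184), with a trend on GC content removed (0.049) and without Control replicate 3 (0.0241), and its largest adjusted p over the alternatives was 0.201.

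Podxl encodes podocalyxin, a heavily charged sialomucin that coats the apical surface and keeps foot processes apart, and which endothelial cells also carry. Podxl (ENSMUSG00000025608, chromosome 6) was measured at 276, 221 and 211 CPM in Control and at 144, 142 and 184 CPM in DKD. No DKD library reached the lowest Control library. The log2 fold change was −0.59 ± 0.17 with an edgeR adjusted p of 0.106, and DESeq2 gave 0.0191.

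Synpo encodes synaptopodin, an actin-associated protein of the foot process. Synpo (ENSMUSG00000043079, chromosome 18) was measured at 74.4, 62 and 60.6 CPM in Control and at 36.2, 44 and 56.8 CPM in DKD. The groups did not overlap, with DKD replicate 1 the lowest and DKD replicate 3 close under Control. The log2 fold change was −0.52 ± 0.18 with an edgeR adjusted p of 0.15, and DESeq2 gave 0.0812.

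**Figure D1:**
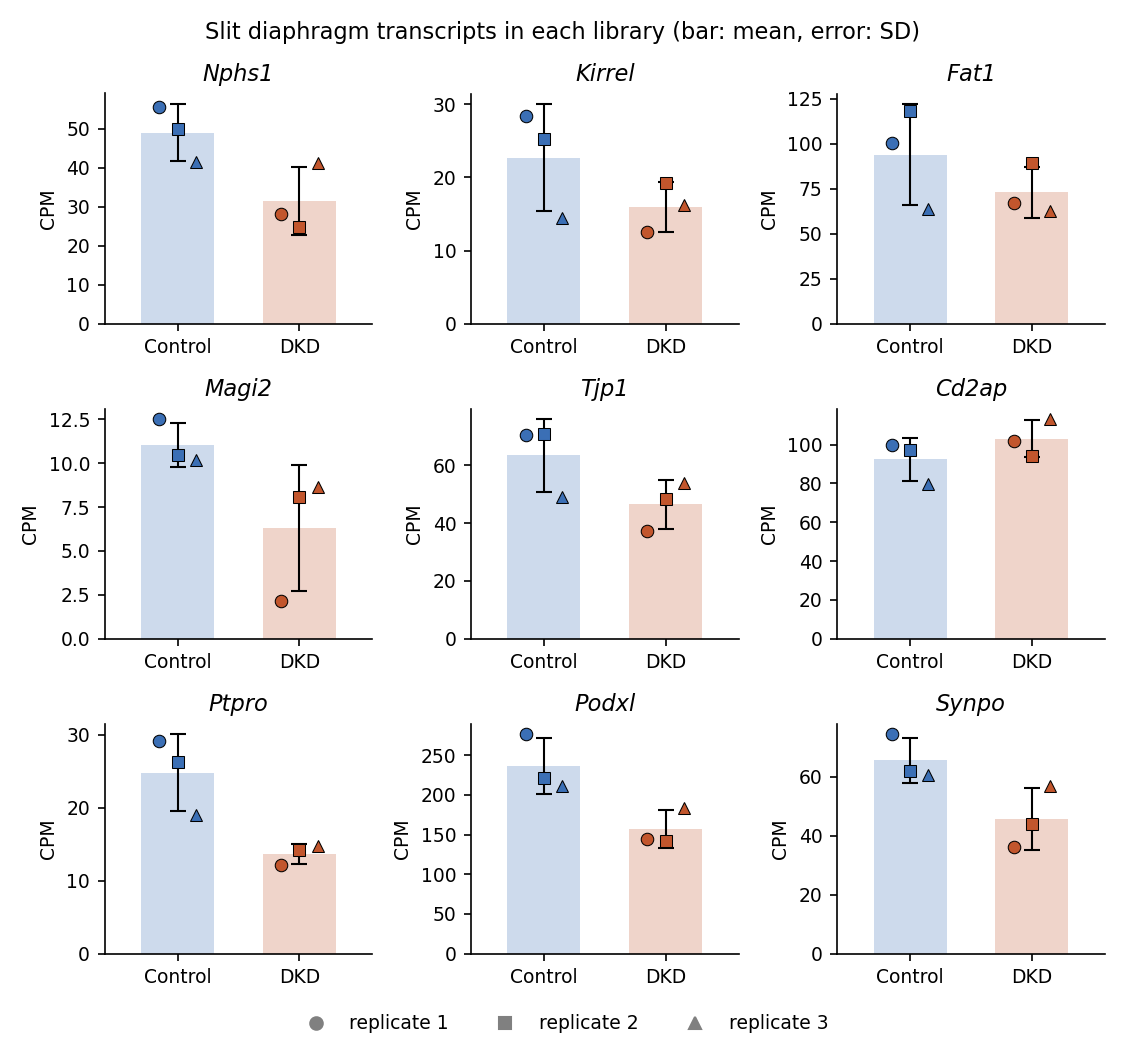
CPM of each of the 9 transcripts in the 3 Control (blue) and 3 DKD (orange) libraries, with marker shape giving the replicate, bars the mean and error bars the SD. The groups are apart for Nphs1, Magi2, Ptpro, Podxl and Synpo and overlap for Kirrel, Fat1, Tjp1 and Cd2ap.

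**Figure D2:**
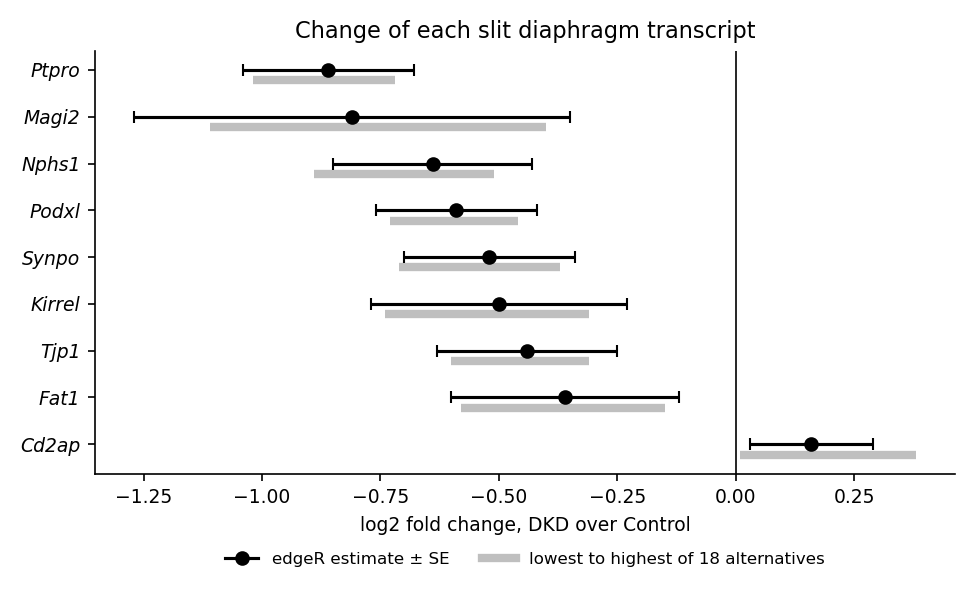
Log2 fold change of DKD over Control for each transcript by edgeR (points, with SE as bars), with the lowest to highest estimate over 18 alternative settings in grey. The 8 lower transcripts stay below 0 in every setting and Cd2ap stays above 0.

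The libraries of one group did not order the 9 transcripts alike. Control replicate 1 was the highest library for 6 of them, Control replicate 2 for 2 and DKD replicate 3 for 1, which was Cd2ap. DKD replicate 1 was the lowest for 5, DKD replicate 2 for 2, and Control replicate 3 and DKD replicate 3 for 1 each. Without Control replicate 3, the count of transcripts with all DKD libraries below all Control libraries was 8 of 9 (23.9% of all genes tested), since Kirrel, Fat1 and Tjp1 joined the others. Leaving out any 1 of the other 5 libraries gave 5 or 6 (17.9% to 22.2% of all genes tested), and Nphs1, Magi2, Ptpro, Podxl and Synpo were among them each time. DESeq2 called 3 of the 9, Nphs1, Ptpro and Podxl, all lower, where it called 11.3% of all genes it tested and 5.2% as lower. limma-voom called 0 of the 9 and 1.03% of all genes.

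Levels can be set against each other only per length of transcript. On CPM per kilobase of exonic length Podxl was the most abundant in Control at 43 ± 6.38 and Magi2 the least at 0.975 ± 0.11. Between them came Tjp1 at 8.12 ± 1.6, Nphs1 at 7.4 ± 1.09, Synpo at 6.89 ± 0.797, Fat1 at 6 ± 1.78 and Cd2ap at 5.82 ± 0.684, whose neighbours in this order lay within their SDs. Ptpro at 3.69 ± 0.78 and Kirrel at 3.04 ± 0.975 also lay within their SDs of each other. The order rests on the gene model: per kilobase of the longest annotated transcript, Cd2ap was at 16.5 ± 1.93, next after Podxl at 43.9 ± 6.51, and Tjp1 was at 8.99 ± 1.77, the fifth. In DKD the same measure per kilobase of exonic length was 28.5 ± 4.32 for Podxl and 6.5 ± 0.592 for Cd2ap, the next in order there.

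To see which of the 9 departed from other podocyte transcripts, each was set against a score, the mean log2 CPM of 28 other podocyte genes. The score was 4.26 to 4.78 in Control and 4.01 to 4.31 in DKD, and 22 of the 28 genes were lower in DKD and 6 higher, with a median log2 fold change of −0.41. Genes within the score had estimates as low as that of Ptpro (−0.86), with Robo2 at −1.24 ± 0.31, Ildr2 at −0.92 ± 0.15 and Thsd7a at −0.87 ± 0.25. A position below the score is thus not particular to Ptpro among podocyte genes. Those 28 genes held 0.114% to 0.167% of counts in Control and 0.101% to 0.119% in DKD. Relative to the score, Ptpro was lower in all 3 DKD libraries, at −0.41, −0.39 and −0.43 (log2) against 0.08, 0.12 and −0.01 in Control, and 2.44% of all genes tested were lower in this way. Cd2ap was higher in all 3, at 2.67, 2.34 and 2.51 against 1.86, 2.02 and 2.06, as were 28% of all genes tested. The other 7 overlapped between the groups on this scale. Tjp1, Fat1 and Kirrel differed from the score by nearly the same amount in both groups, with mean shifts of −0.08, 0.03 and −0.1. Nphs1 had a mean shift of −0.3, which came from DKD replicates 1 and 2 (0.8 and 0.42), while DKD replicate 3 (1.06) lay within the Control range of 1.02 to 1.11.

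**Figure D3:**
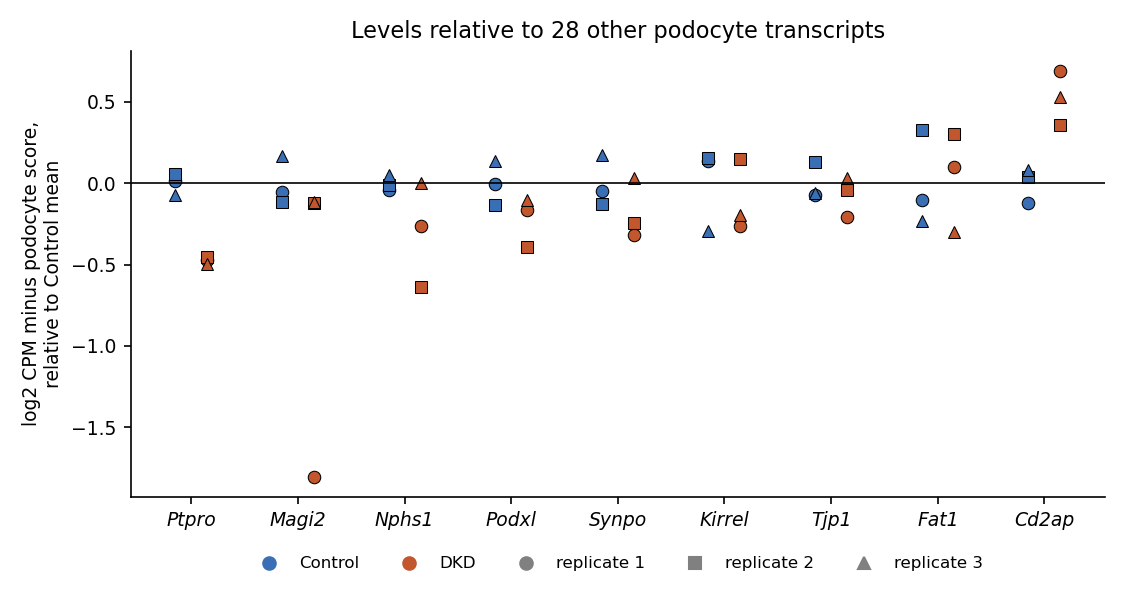
Log2 CPM of each transcript minus the mean log2 CPM of 28 other podocyte genes, drawn relative to the Control mean, for the 3 Control (blue) and 3 DKD (orange) libraries. Ptpro is below and Cd2ap above Control in all 3 DKD libraries, and Magi2 in DKD replicate 1 is far below the rest.

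Ratios between 2 transcripts in one library do not depend on how libraries are scaled, and Cd2ap was examined this way after its values were seen. In 6 of the 8 pairs that include Cd2ap the groups did not overlap, and Cd2ap was the relatively higher one in DKD each time; the exceptions were Kirrel and Fat1. A ratio to Cd2ap that was lower in every DKD library was found for 17.9% of all genes tested. The log2 ratio of Nphs1 to Cd2ap was −0.84, −0.96 and −0.95 in Control and −1.87, −1.92 and −1.45 in DKD. The transcripts of nephrin and of its adaptor thus differed by 0.83 more on the log2 scale in DKD, against SDs of 0.07 and 0.26. For Cd2ap over Ptpro the mean log2 ratio was 1.91 ± 0.15 in Control and 2.91 ± 0.17 in DKD. With 3 libraries against 3, an exact permutation test cannot go below 0.1, so no test was made on single ratios.

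**Figure D4:**
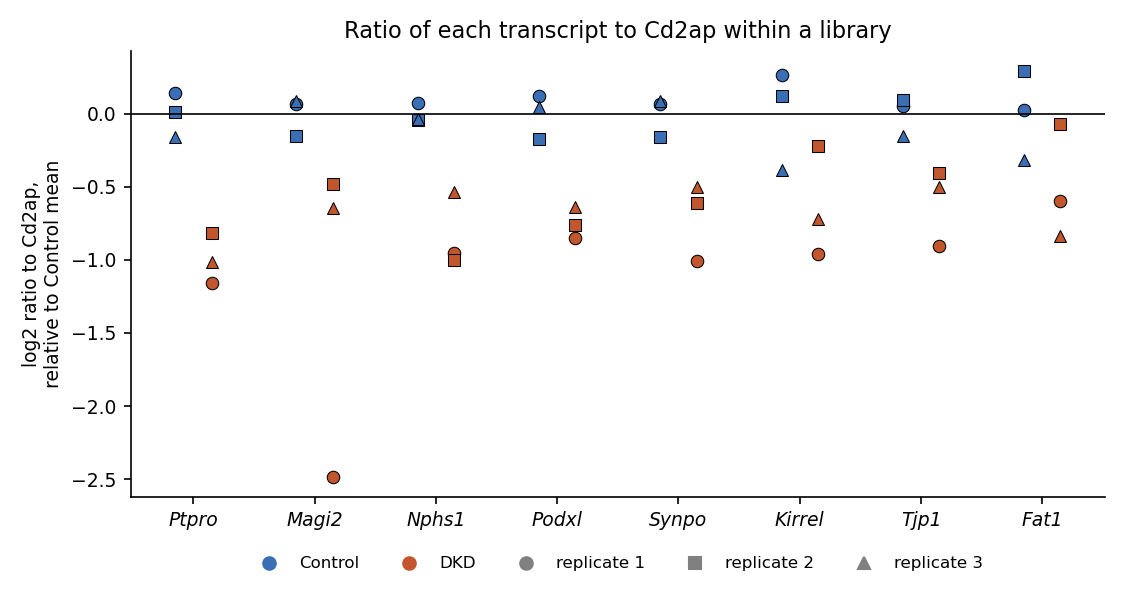
Log2 ratio of each transcript to Cd2ap within a library, drawn relative to the Control mean, for the 3 Control (blue) and 3 DKD (orange) libraries. The DKD libraries lie below all Control libraries for Ptpro, Magi2, Nphs1, Podxl, Synpo and Tjp1 and overlap with them for Kirrel and Fat1.

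Among the 28 pairs without Cd2ap, the groups were apart for 2, Kirrel to Ptpro and Tjp1 to Ptpro. No share over all genes was computed for such pairs, so whether 2 of 28 is many or few was not tested. The log2 ratio of Tjp1 to Ptpro was 1.27, 1.44 and 1.37 in Control and 1.62, 1.77 and 1.87 in DKD. Kirrel to Ptpro was −0.04, −0.05 and −0.38 in Control and 0.04, 0.44 and 0.14 in DKD. In contrast, Podxl to Synpo was 1.84 ± 0.05 in Control and 1.79 ± 0.17 in DKD, a mean difference of −0.05. Nphs1 to Podxl was −2.27 ± 0.11 and −2.35 ± 0.18. The ratios among these 3 transcripts of the slit, surface and foot process, with Nphs1 to Synpo at −0.43 ± 0.12 and −0.55 ± 0.24, thus differed between groups by less than the SD within DKD.

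Tjp1 and Ptpro are both lower in DKD but by unequal amounts, and their promoters are shown to set a broadly made transcript beside a podocyte one. RefSeq's promoter table for build GRCm38.p6 held 7 of the 9 genes. Each line is the 250 bases before the start site, 5′ to 3′ on the strand of the gene, with the E-box CANNTG and the GC box GGGCGG, searched on both strands, in capitals. The first is chr6:137252049-137252298 on the plus strand and the next is chr7:65371245-65371494 on the minus strand.
Ptpro: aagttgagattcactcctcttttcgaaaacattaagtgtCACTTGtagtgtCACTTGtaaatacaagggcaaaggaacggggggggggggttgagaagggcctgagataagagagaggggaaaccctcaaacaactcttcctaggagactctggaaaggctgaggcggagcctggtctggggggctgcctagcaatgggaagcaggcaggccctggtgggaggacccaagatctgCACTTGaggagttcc
Tjp1: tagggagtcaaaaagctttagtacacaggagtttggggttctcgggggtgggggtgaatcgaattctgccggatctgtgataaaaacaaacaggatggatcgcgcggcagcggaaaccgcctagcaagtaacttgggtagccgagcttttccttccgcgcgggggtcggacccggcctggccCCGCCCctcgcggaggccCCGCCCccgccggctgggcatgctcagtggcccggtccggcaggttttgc
The Ptpro stretch held 3 E-boxes, 0 GC boxes and 3 CG dinucleotides, and the Tjp1 stretch held 0 E-boxes, 2 GC boxes and 22 CG dinucleotides. Over all 32851 promoters of this length 66.2% held an E-box and 32.7% a GC box, and the median was 6 CG dinucleotides. Cd2ap had 31 CG dinucleotides, Kirrel 24, Nphs1 5 and Fat1 2, and the Magi2 records had 29 and 3. The stretches of Cd2ap, Kirrel and Nphs1 also held bases of an annotated transcript of their own gene. Whether CG content bears on the changes in DKD was not tested. A match is a string of letters and no evidence of binding, and which start sites glomeruli use was not measured.

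The genes of the 9 transcripts have a long exonic length, and in these libraries genes of longer exonic length tended to be lower in DKD. Exonic length here counts the exons of all annotated transcripts of a gene together, so it can exceed any 1 transcript. For Cd2ap it was 15864 bases against 5610 in the longest transcript, for Magi2 11348 against 6578 and for Synpo 9533 against 5159. A trend on the length of the longest transcript was not tested. Across 19684 genes, which share these libraries, exonic length correlated with the log2 fold change at −0.249 (Spearman). Exonic lengths of the 9 ran from 5488 bases for Podxl to 15864 for Cd2ap, at the 71.4th to the 98.4th percentile of genes tested. The 500 genes nearest in length to each had median log2 fold changes of −0.06 to −0.24. With the length trend removed from each library the median of the 9 was −0.37, and Ptpro was at −0.75, Nphs1 at −0.54 and Podxl at −0.53. Per library, the correlation of a gene's deviation with its length was 0.177, 0.181 and 0.088 in Control and −0.278, −0.013 and −0.197 in DKD. DKD replicate 1, the lowest library for 5 of the 9, had the most negative value. The part of RNA quality in this was not tested.

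**Figure D5:**
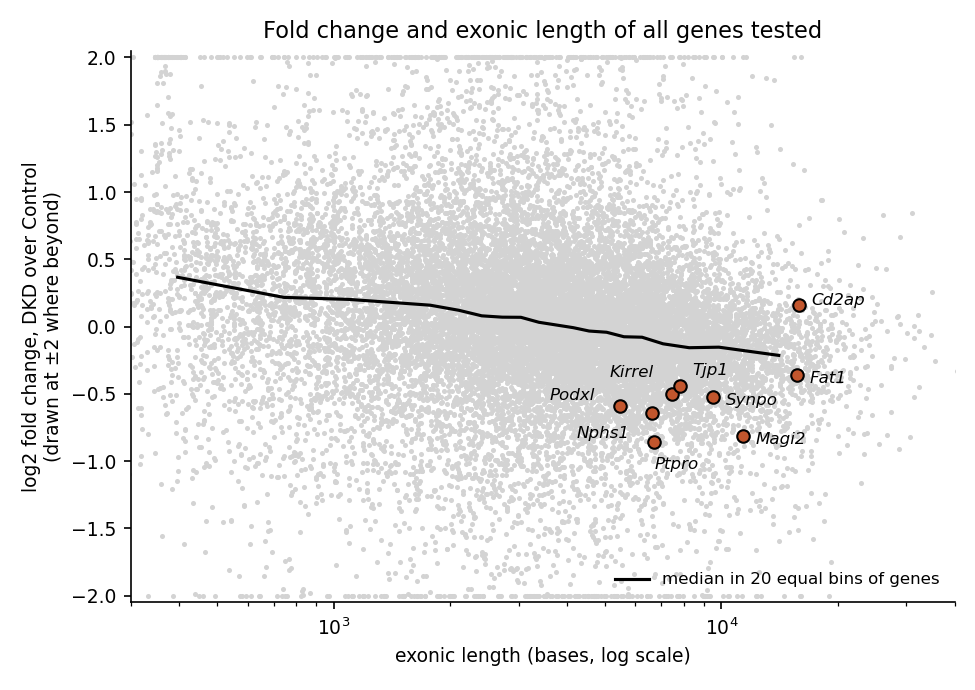
Log2 fold change of DKD over Control against exonic length (log axis) for all genes tested (grey), their median in 20 bins of equal gene number (line) and the 9 transcripts (orange). The line falls with length, and 8 of the transcripts lie below the genes of like length (medians of −0.06 to −0.24) while Cd2ap, at 0.16, lies above them.

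Of 40 other genes of the slit diaphragm complex and its signalling, 23 were lower and 17 higher in DKD, with a median log2 fold change of −0.07. At an unadjusted edgeR p under 0.05 there were 7 lower and 4 higher, where 10.9% and 11.8% of all genes were. DESeq2 called 5 lower and 2 higher, where it called 11.3% of all genes and 5.2% as lower. None of the 40 passed edgeR's test over all genes, and the smallest edgeR adjusted p was 0.064. Cdh3, a classical cadherin, had this value and was measured higher in DKD, from 6.84 ± 1.48 to 14.7 ± 3.32 CPM (1.1 ± 0.23, edgeR adjusted p 0.064). The most abundant of these genes per length were Slc9a3r1 and Ezr, which link podocalyxin to actin and are also made by tubule cells, and they had −0.23 ± 0.21 and 0.14 ± 0.14. Slc9a3r1 ran from −0.02 (without Control replicate 3) to −0.4 (without DKD replicate 1) when 1 library was left out, and Ezr from 0.09 (without Control replicate 2) to 0.23 (without Control replicate 3). Of the 40, 11 (27.5%) had all DKD libraries below Control and 7 had all above, where 15.2% and 15.5% of all genes did.

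Members of the same protein families went both ways. Of 17 such genes 11 were lower and 6 higher in DKD with a median of −0.38. That median was the estimate of Fat3 (−0.38 ± 1.25), measured at 0.265 CPM in Control. Ptprh (−2.01 ± 1.76), Kirrel3 (−1.21 ± 0.68), Fat2 (−0.98 ± 1.62) and Kirrel2 (−0.68 ± 1.1) lay below it, also with means under 1 CPM. The median thus rests in part on transcripts at very low levels. None of the 17 passed edgeR's test, which 1.16% of all genes passed. At an unadjusted edgeR p under 0.05 there were 2 lower and 2 higher, where 10.9% and 11.8% of all genes were. DESeq2 called 1 in each direction, where it called 11.3% of all genes and 5.2% as lower. The other Neph genes were hardly expressed, with Kirrel2 at 0.233 ± 0.131 and Kirrel3 at 0.959 ± 0.595 CPM in Control, against 22.7 ± 7.24 for Kirrel. Magi1, a scaffold related to Magi2, was lower in every DKD library (28.2 ± 1.82 to 21.5 ± 1.23 CPM, log2 fold change −0.39 ± 0.11, edgeR adjusted p 0.102), and unlike Magi2 its 3 DKD libraries lay between 20.4 and 22.8 CPM. Of the ZO genes, Tjp3 had 0.5 ± 0.19 (edgeR adjusted p 0.186) beside −0.44 for Tjp1. Synpo2 had −0.68 ± 0.2 and Synpo2l 1.14 ± 0.28, with edgeR adjusted p-values of 0.115 and 0.0843. Ptprj, a receptor phosphatase and the most abundant of these genes per length over all 6 libraries (though below Tjp3 in DKD, at 7.15 against 8.1 CPM per kilobase), was at 58.5 ± 1.88 and 59.7 ± 2.45 CPM, with a log2 fold change of 0.03 ± 0.09 (−0.11 when scaled by library totals).

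Other cells of the glomerulus and kidney were present in these libraries. The calls in the lists below stand beside 1.16% of all genes called by edgeR. For DESeq2 the share was 11.3% of all genes, and 5.2% as lower. Of 28 podocyte markers outside the 9, 1 fell by edgeR (DESeq2 called 7, all lower), Ildr2, a membrane protein of the immunoglobulin superfamily (69.5 ± 8.49 to 36.8 ± 5.22 CPM, −0.92 ± 0.15, edgeR adjusted p 0.0419). It no longer passed when Control replicate 1 or 2 or DKD replicate 1 or 3 was left out (−0.82 to −0.99, adjusted p 0.119 to 0.153). Nor did it pass without the filter (−0.92, 0.0837) or with a length or GC trend removed (−0.79, 0.0858 and −0.95, 0.0565). The most abundant podocyte markers per length were Col4a3, a chain of the basement membrane (−0.15 ± 0.16, 0.02 with the length trend removed, −0.02 without DKD replicate 3 and −0.24 without DKD replicate 1), and Npnt, an integrin ligand (−0.02 ± 0.13, of either sign over the alternatives). Endothelial markers held 0.0554% to 0.101% of counts in Control and 0.0423% to 0.0723% in DKD, with 11 of 16 lower and a median of −0.3. Of these 16, edgeR called 0 and DESeq2 called 3, all lower. All 19 proximal tubule markers were lower, with a median of −0.69, and 2 of them fell by edgeR (DESeq2 called 9, all lower). These, named after their values were seen, were the sodium-coupled transporters Slc5a12 (208 ± 61.7 to 35.1 ± 4.36 CPM) and Slc5a2 (344 ± 143 to 97.6 ± 13 CPM), with edgeR adjusted p-values of 0.0192 and 0.0445. Slc5a12 lost the call without Control replicate 1, DKD replicate 1 or DKD replicate 3 (0.0666 to 0.0937), and Slc5a2 without any 1 library but Control replicate 3 (0.0699 to 0.156), without the filter (0.0861) and with a length or GC trend removed (0.0561 and 0.0501). Over the 6 libraries the tubule genes of highest mean CPM were Kap and Slc27a2 in the proximal list (12954 ± 7148 and 4361 ± 1280.1 CPM in Control) and Umod and Slc12a3 in the distal and collecting duct list (3034 ± 516 and 1094 ± 312 CPM in Control). Also in Control, the endothelial genes Eng and Plat were at 132 ± 28.7 and 85.4 ± 10.9 CPM, the mesangial and juxtaglomerular genes Rgs5 and Ren1 at 110.2 ± 35.3 and 88.4 ± 38.3 CPM, and the parietal genes Krt8 and Cd9 at 113 ± 7.95 and 92.5 ± 17.5 CPM. Of 15 mesangial genes 1 fell by edgeR and by DESeq2, the angiotensin receptor Agtr1a, also named after its values were seen (56.1 ± 8.19 to 26.8 ± 3.87 CPM, −1.07 ± 0.16, edgeR adjusted p 0.036). It lost the edgeR call without Control replicate 1 or 2 or DKD replicate 1 or 3 (0.0926 to 0.142) and without the filter (0.0709). Leukocyte genes were at lower levels, with Csf1r at 61.9 ± 3.03 and Lyz2 at 56.3 ± 36.6 CPM. Medians of the log2 fold change were −0.18 for mesangial, 0.33 for parietal, −0.1 for distal and collecting duct and 0.72 for leukocyte markers. How far these shifts enter the 9 transcripts was not tested.

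Genes outside all of these lists were ranked by how closely their log2 CPM followed the mean standardised profile of the 9 over the 6 libraries. Among 9752 genes with a mean of at least 10 CPM, the 5 closest were Ano1, Parn, Arhgef17, Dlc1 and C1qtnf1, with Pearson correlations of 0.9939, 0.9919, 0.991, 0.9909 and 0.9892. With 6 libraries in 2 groups such values are a description only. Of the 9 themselves, Tjp1 lay closest to that mean profile (0.99) and Cd2ap farthest (0.07). Ano1, a calcium-activated chloride channel, was measured at 19.8, 16.7 and 8.35 CPM in Control and at 5.5, 7.95 and 9.22 CPM in DKD.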

How the data were processed

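RNA of isolated mouse glomeruli was measured in 3 Control and 3 DKD libraries. The deposited table holds raw counts per Ensembl gene without normalization. The submitters' processing notes list fastp, HISAT2, StringTie, edgeR and build GRCm39. No version, annotation or strand setting is given there. Values of 4 occurred 6267 times against 3129 for 3 and 1993 for 5, so the counts may be converted coverage estimates.

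Symbols, lengths and transcript GC came from GENCODE M21 (GRCm38), which matched 55141 of 55401 identifiers (260 unmatched). Genes kept by filterByExpr (minimum count 10) were scaled with TMM and tested with edgeR 4.0.16 (R 4.3.3), group as the only term, Benjamini-Hochberg adjusted over all 19717. SE is the log2 coefficient over the square root of F. Log2 CPM used a prior count of 2. Alternatives used DESeq2 1.42.0, limma 3.58.1 and trends with 5 degrees of freedom. On simulated counts for this comparison (19717 genes) the procedure found 43 of 100 genes set to a log2 fold of 1 and 96 of 100 set to 2. Of its 148 calls, 9 were genes left unchanged. Log2 folds smaller in size than 1, such as those estimated for the 9 transcripts, were not simulated.

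Named genes were all 9 transcripts, per related list those past the threshold or the 4 of smallest p with the 2 most abundant per length, and the 5 most similar profiles; some genes this rule names are not reported here. The members and lists were chosen with earlier results of these data known. No library was left out.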

Additional observations from a re-analysis of the deposited data

How the results depend on the processing

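All 8 transcripts below Control kept that direction, and Cd2ap the opposite one, in all 18 alternatives. Of these, the threshold of 0.1 reuses the main fit, so its estimates could not differ. Robust dispersion left the rounded estimates of the 9 unchanged. Of the 9, edgeR called 0, where it called 1.16% of all genes. DESeq2 called 3 (11.3% of all genes), removing the GC trend 1, Ptpro (1.01%), and a threshold of 0.1 also 1, Ptpro (7.5%). Of the 40 partners library totals called 1 (1.39% of all genes), DESeq2 7 (11.3%) and a threshold of 0.1 4 (7.5%). Of the 17 relatives DESeq2 called 2 and a threshold of 0.1 1, beside the same shares of all genes. Leaving out 1 library at a time, the calls among the 9 ran from 0 to 1 (Ptpro, without Control replicate 3, where 1.88% of all genes were called). The transcripts with all DKD libraries below all Control libraries, chosen after seeing the data, ran from 5 to 8 (17.9% to 23.9% of all genes). Over all genes the calls ran from 1 (without Control replicate 1) to 386 (without Control replicate 3), and were 4, 10, 13 and 298 without DKD replicate 1, DKD replicate 3, Control replicate 2 and DKD replicate 2. They were 2134 with DESeq2, 516 with at least 1 CPM in 3 libraries, 56 without a filter and 1478 at a threshold of 0.1. Library totals shifted the median of all genes by −0.13 and that of the 9 to −0.66. Reversed were Ptprj (−0.11 with library totals), Col4a3 (0.02 with the length trend removed) and Npnt (0.02 with the length trend removed, and 0 to 0.04 without Control replicate 1, Control replicate 2, DKD replicate 1 or DKD replicate 3). The causes were not tested.

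The labels give replicate numbers but state no pairing. Deviations of same-numbered libraries correlated at −0.183, 0.066 and −0.224, and those of differently numbered libraries at −0.204 to 0.268. Deviations from a mean of 3 libraries depend on each other, so these values cannot tell whether same-numbered libraries were processed together. With the replicate number as a block, 0 of the 9, 0 partners, 0 relatives and 0 genes in all were called, where the fit without it called 228.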

Other observations

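Transcription factors of the podocyte, named here after their values were seen, varied in how far they were below Control. Wt1, which the podocyte needs to keep its identity, was measured at 15.7, 13.9 and 12 CPM in Control and at 8.02, 8.21 and 12 CPM in DKD, with a log2 fold change of −0.56 ± 0.21 (edgeR adjusted p 0.173). Lmx1b, a LIM homeodomain factor, was lower in every DKD library (4.09 ± 0.62 against 2.39 ± 0.255 CPM, −0.77 ± 0.24, edgeR adjusted p 0.126). The Control and DKD means of Tcf21 were 21.7 ± 6.85 and 19.8 ± 7.83 CPM (−0.14 ± 0.35). None of these 3 passed the threshold.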
